A study of Mus musculus with 12 samples.

Results

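The late response of mouse embryonic fibroblasts to the carcinogen DMBA (7,12-dimethylbenz[a]anthracene) was read by comparing 4 arrays of cells exposed for 48 h with 4 arrays of cells given the solvent DMSO. The sample titles placed 8 of the 12 arrays of the series in this comparison, 1 per genotype and treatment, and each DMBA array was set against the DMSO array of its own genotype. The genotypes were wild type (WT, Sting +/+ Trex1 +/+), Trex1 -/- (TKO), Sting -/- (SKO) and the double knockout Sting -/- Trex1 -/- (STKO), all of a mixed C57BL6/129Sv background and grown from E13.5 embryos. DMBA was given at 20 µg/ml. The other 4 arrays, DMBA for 24 h, entered the normalization, the choice of probes tested and the estimate of the spread, and their values stand beside some of the results.

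The design sets limits on every value below. Whether the arrays of a genotype came from separate embryos is not stated. Each p-value sets a mean response, or its difference by STING status, against the spread of the response between genotypes on single arrays. That spread mixes genotype, culture and technical differences, which cannot be told apart. No label says how long the DMSO cells were kept, and an effect of DMBA and one of culture time cannot be told apart. Each genotype was a single array per treatment, so STING or Trex1 status and the culture of origin cannot be told apart either.

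DMBA is a polycyclic aromatic hydrocarbon that binds the aryl hydrocarbon receptor, a transcription factor that switches on the enzymes that oxidize and conjugate such compounds. Cytochrome P450 1B1 turns DMBA into diol epoxides that form bulky DNA adducts, which stall replication and transcription and activate p53. Electrophilic and oxidized products also activate NRF2, the transcription factor of the antioxidant genes, and STING is the adaptor through which cytosolic DNA activates interferon genes.

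Between 16005 and 16824 probes were detected on each of the 8 arrays, and the signal medians lay between 69.8 and 87.5. All values below are normalized log2 signals or differences of them. A gene was called risen or fallen at a Benjamini-Hochberg adjusted p under 0.05 in limma, and ± gives limma's standard error of the mean difference over the 4 genotypes. The targeted transcripts separated the genotypes: Sting1 read 7.80 and 7.90 under DMSO in WT and TKO and was not detected under DMSO in SKO (5.38) and STKO (5.06), while Trex1 read 8.62 and 8.12 in WT and SKO against 6.45 and 6.22 in TKO and STKO. All 10 tested fibroblast markers were detected on all 8 arrays.

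After 48 h of DMBA the transcriptome had moved broadly and in both directions. Of 18389 probes tested 7277 were called (39.6%), 3517 risen and 3760 fallen. With 1 probe per gene, 1947 of 10142 genes rose (19.2%) and 2222 fell (21.9%), and 4004 of these 4169 genes moved the same way in all 4 genotypes. The 24 h arrays, set against the same DMSO arrays, gave 711 genes risen and 987 fallen. The median difference of all genes was -0.02. Large changes were fewer: 553 genes rose and 589 fell by more than 1 on the log2 scale, 113 and 88 by more than 2, and 24 and 13 by more than 3. The DMSO and DMBA values did not overlap in 3604 genes (35.5%). Transcripts of 72 genes were detected on all 4 DMBA arrays and on no DMSO array, and those of 69 genes on all 4 DMSO arrays and on no DMBA array.

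The genotypes differed in how far their transcripts moved. The standard deviation of the 48 h differences over all tested probes was 0.851 (WT), 0.847 (TKO), 0.668 (STKO) and 0.537 (SKO). In WT 1547 probes lay above 1 and 1555 below -1, against 618 and 462 in SKO. Across probes the differences correlated at r = 0.863 between WT and TKO and at 0.788 between SKO and STKO, while WT and SKO reached 0.61. These correlations run over 18389 probes of single arrays and are a description only, since probes are not replicates. With 1 array per genotype and treatment, the smaller response of SKO has no replicate check.

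**Figure D1:**
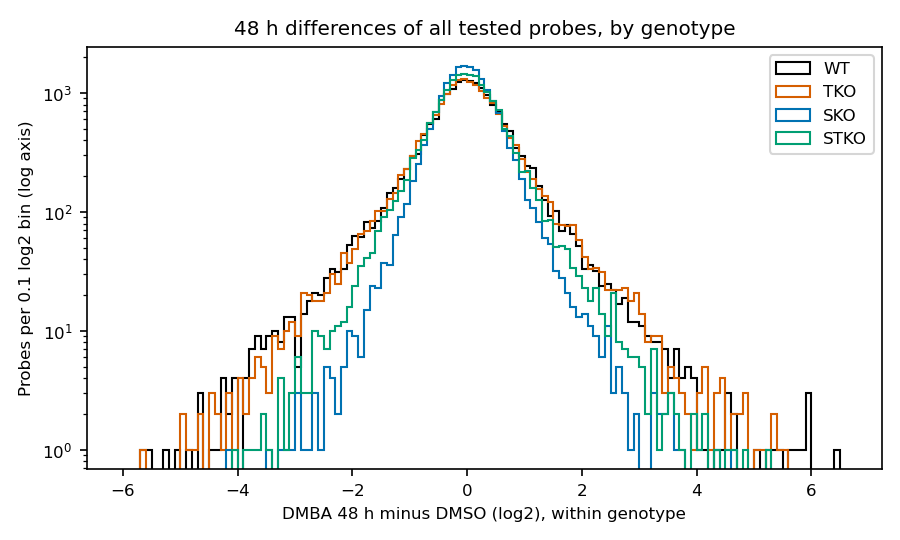
Number of tested probes (log axis, bins of 0.1) at each DMBA 48 h minus DMSO difference (log2), 1 line per genotype. The lines of WT and TKO reach farthest to both sides and that of SKO is the narrowest, with standard deviations of 0.851, 0.847 and 0.537.

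Svop, a transporter-like protein of synaptic vesicles, had the largest fitted rise. It read 5.01, 5.49, 5.56 and 5.41 under DMSO in WT, TKO, SKO and STKO and 10.92, 11.02, 9.27 and 10.69 after DMBA. It was not detected on any DMSO array and stood at least 28.1-fold higher after DMBA (adjusted p = 6.95e-05). Every DMBA array lay far above every DMSO array, with SKO lowest. Cox6b2, the testis form of a cytochrome c oxidase subunit, went from 5.11, 6.70, 5.67 and 6.01 to 11.10, 11.56, 9.98 and 10.91, a rise of 5.02 ± 0.32 (adjusted p = 1.71e-05). Espn, an actin-bundling protein, rose by 4.34 ± 0.43 and the uncharacterized 1700007K13Rik by 4.54 ± 0.40.

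Several of these transcripts appeared from below the detection limit. Tnfrsf18, which encodes the TNF receptor family member GITR, read 4.38 to 4.49 on the DMSO arrays and 10.36, 9.87, 6.43 and 8.44 after DMBA in WT, TKO, SKO and STKO, at least 8.64-fold higher. Gal, the neuropeptide galanin, followed the same order, at 4.49 to 4.57 under DMSO and 10.25, 9.90, 5.86 and 8.90 after DMBA (at least 8.36-fold). Akr1c18, an aldo-keto reductase that inactivates progesterone, reached 11.02 (WT), 9.85 (TKO), 7.60 (STKO) and 6.33 (SKO) from 4.51 to 4.62, at least 8.22-fold higher. In all 3 genes the groups did not overlap and SKO was the lowest DMBA array. Ltb4r1, a receptor for leukotriene B4, stood at least 8.5-fold higher, and Mreg, which acts in organelle transport, at least 6.28-fold. Matn4, a cartilage matrix protein detected on 1 DMSO array, rose by 4.27 ± 0.67, though its 2 other tested probes read 1.84 and 1.89. Rprm, a p53 target that arrests cells before mitosis, rose by 3.59 ± 0.44.

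Piezo2, a mechanically gated channel, had the largest fitted fall. It read 9.16, 9.53, 8.80 and 8.65 under DMSO in WT, TKO, SKO and STKO and 4.68, 4.84, 5.82 and 4.87 after DMBA. It fell by 3.98 ± 0.37 (adjusted p = 9.41e-05). After DMBA it was detected on 1 array alone, and so were Prkg1, Slc24a3, Tenm3, Cyp7b1, Ldb2, Gtdc1 and Tril, so their fitted falls are set against signals mostly near background and their order is uncertain. Prkg1, a kinase activated by cyclic GMP, went from 8.83, 9.56, 9.19 and 9.33 to 4.62, 4.65, 7.00 and 5.47, a difference of -3.79 ± 0.41. In both genes the groups did not overlap and SKO kept the highest DMBA value. Slc24a3, a sodium, calcium and potassium exchanger, fell by 3.63 ± 0.41 and the teneurin Tenm3 by 3.25 ± 0.36. Tgfbi, a secreted protein that links collagen and integrins, read 10.73 to 12.36 under DMSO and 7.29 to 8.83 after DMBA and fell by 3.65 ± 0.33.

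The fall of Itga11, an integrin that binds collagen, was uneven over the genotypes. It went from 12.14, 11.96, 12.66 and 12.18 to 6.56, 7.11, 11.70 and 10.38, so that WT and TKO lost over 4 log2 units and SKO less than 1. Tril, an accessory protein of Toll-like receptors, showed the same order, with differences of -4.62 (WT), -4.61 (TKO), -2.91 (STKO) and -0.37 (SKO), and its groups overlapped. Aldh1l2, a mitochondrial folate enzyme, fell by 3.29 ± 0.45, and so did Cyp7b1, which hydroxylates oxysterols (-3.22 ± 0.55), and Ldb2, which binds LIM domain transcription factors (-3.10 ± 0.42). Trib3, a pseudokinase of the amino acid stress response, fell by 2.98 ± 0.35. Cx3cr1, the fractalkine receptor, stood at least 6.69-fold lower, the chemokine Ccl12 at least 5.39-fold and elastin (Eln) at least 3.98-fold, since none of these 3 was detected on any DMBA array.

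**Figure D2:**
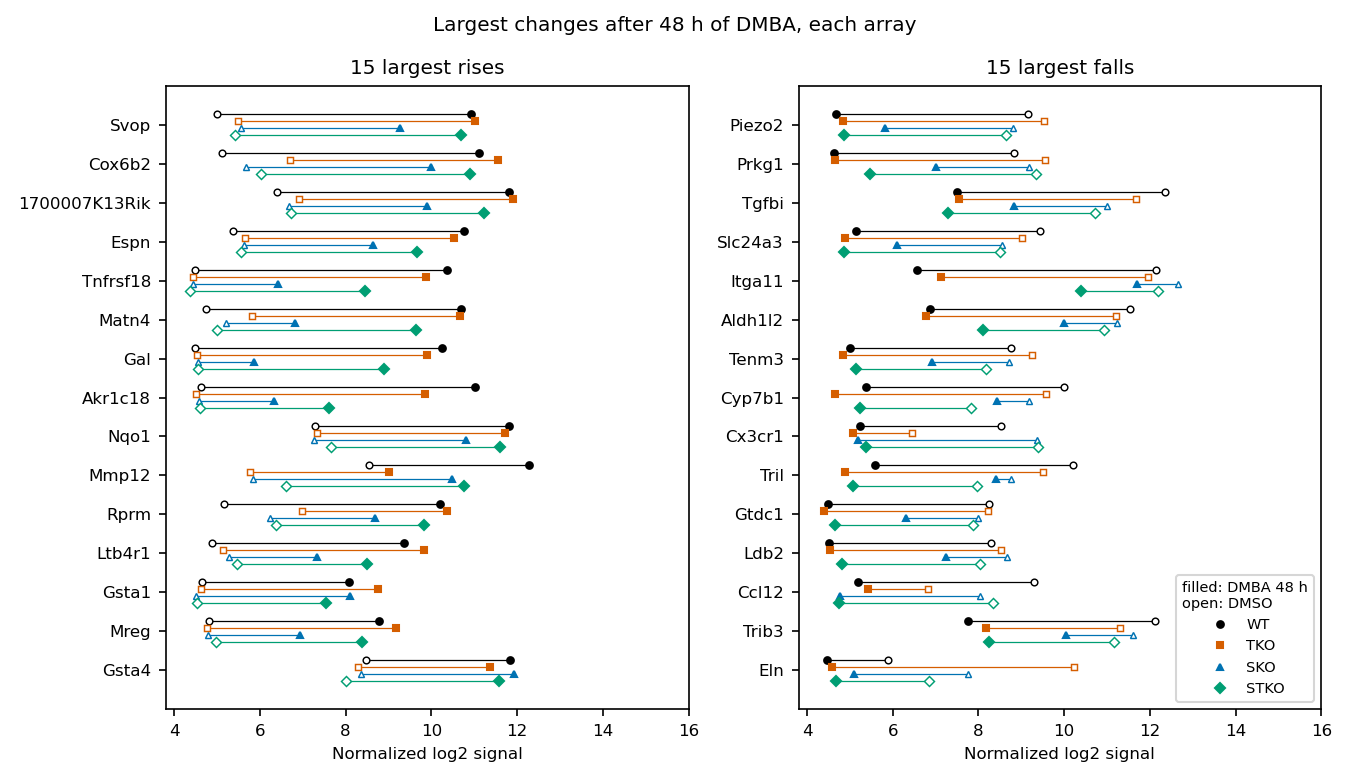
Normalized log2 signal of the 15 genes with the largest rise (left) and the 15 with the largest fall (right) on each array, with open symbols for DMSO, filled symbols for DMBA 48 h and a line joining the 2 arrays of a genotype. SKO (blue triangles) has the shortest line in most genes, such as Gal (4.56 to 5.86) and Itga11 (12.66 to 11.70).

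Genomic length of the gene went with the direction of the change. Of the 15 largest falls 8 were of genes over 100 kb, among them Prkg1 (1201 kb), Tenm3 (1297 kb), Slc24a3 (474 kb), Piezo2 (378 kb), Ldb2 (364 kb) and Gtdc1 (363 kb), which fell by 3.13 ± 0.35. None of the 15 largest rises was over 100 kb. Over all 10129 genes with a length in the RefSeq table of assembly GRCm38.p6, 26.6% of those under 5 kb rose and 15.1% fell. Between 20 and 50 kb the shares were 19.8% and 18.9%. Among the 348 genes of 200 to 500 kb 3.45% rose and 58% fell, with a median of -0.68, and among the 71 genes over 500 kb 4.23% rose and 73.2% fell, with a median of -1.07.

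In each genotype the median was highest in genes under 10 kb and lowest in those over 500 kb. In the genes over 500 kb the median difference was -1.29 (WT), -1.23 (TKO), -1.002 (STKO) and -0.63 (SKO). The same bin stood at -1.10 at 24 h against the same DMSO arrays. Long genes also had a lower signal: the mean level over the arrays was 9.10 in genes under 5 kb and 6.18 in genes over 500 kb, and the part of signal level in this order was not tested.

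**Figure D3:**
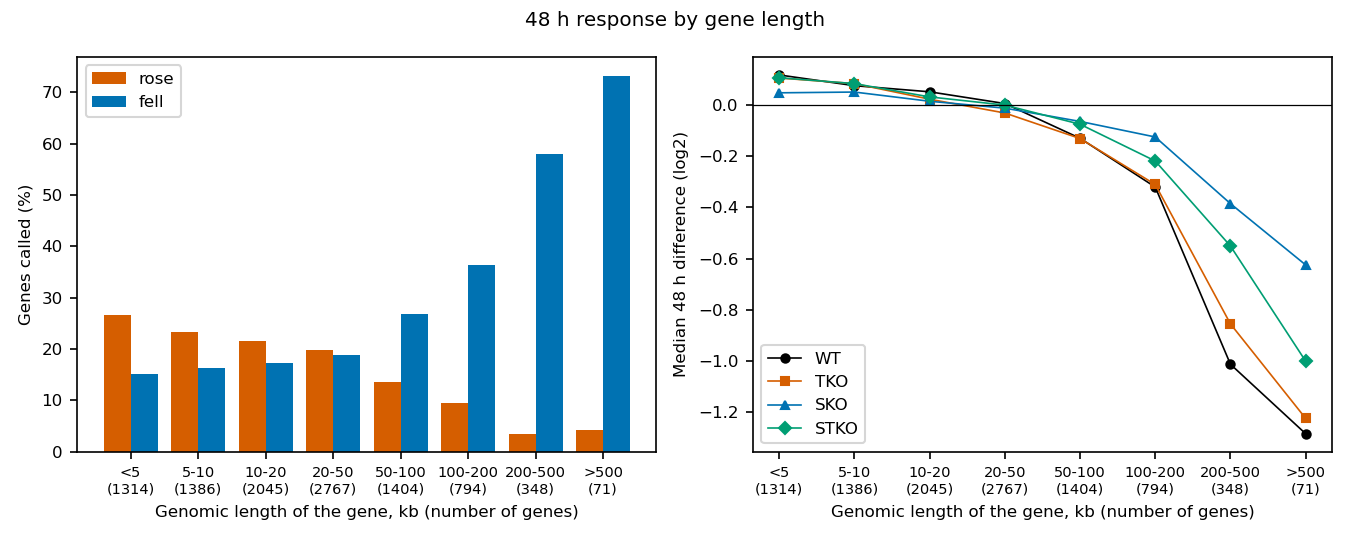
Left, percent of genes called risen or fallen in each bin of genomic length (kb, number of genes in parentheses); right, the median DMBA 48 h minus DMSO difference (log2) of each bin in each genotype. The share fallen climbs from 15.1% to 73.2% along the bins while the share risen drops from 26.6% to 4.23%, and all 4 genotypes end below 0.

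The enzymes that meet DMBA itself rose. Of 11 listed members of the aryl hydrocarbon receptor battery 8 were tested, and all 8 rose, with a median of 1.88 against -0.02 for all genes. A gene could enter the test through the DMBA arrays alone, which favours a rise. Only 3 members were detected on all 8 arrays, and these rose with a median of 1.49. Cyp1b1, the cytochrome P450 that activates DMBA, went from 11.35, 11.14, 10.51 and 10.89 in WT, TKO, SKO and STKO to 12.94, 12.46, 11.89 and 12.57, a rise of 1.49 ± 0.12 (adjusted p = 6.46e-05). Nqo1, a quinone reductase, read 7.26 to 7.67 under DMSO and 10.81 to 11.82 after DMBA and rose by 4.10 ± 0.24. In both genes every DMBA array lay above every DMSO array, and SKO was the lowest after DMBA. For Cyp1b1 SKO was the lowest under DMSO too (10.51). The median of the battery was 1.559 (WT), 2.081 (TKO), 1.834 (STKO) and 2.085 (SKO), so SKO did not respond less over this list. Aldh3a1, an aldehyde dehydrogenase not detected under DMSO, stood at 5.72 (WT), 7.25 (TKO), 7.98 (SKO) and 6.37 (STKO) after DMBA, at least 2.25-fold higher. Ahrr, the receptor's own repressor, rose by 1.24 ± 0.24. This list and the others here were chosen with earlier results of these data known, so their counts are descriptions.

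Glutathione S-transferases, which couple electrophiles to glutathione, rose in 14 of 21 cases and fell in 2, with a median of 0.75. Gsta4, which clears products of lipid peroxidation, read 8.47, 8.28, 8.35 and 8.01 under DMSO and 11.85, 11.37, 11.92 and 11.58 after DMBA. The difference of 3.40 ± 0.11 was nearly the same in all 4 genotypes (adjusted p = 7.33e-07). Gsta1 rose from 4.51 to 4.65, where it was not detected, to 8.08, 8.76, 8.10 and 7.53, at least 5.48-fold higher, and Gsta2 was at least 3.27-fold higher. Probes of the near-identical alpha class genes may read more than 1 of them. Mgst2 rose by 2.72 ± 0.20, while Mgst3 (-1.28 ± 0.22) and Gstt1 (-0.67 ± 0.21) fell. Gstt1 lost its call without WT, TKO or STKO.

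Glutathione and thioredoxin enzymes rose in 10 of 13 cases, with a median of 1.13. Srxn1, which repairs oxidized peroxiredoxins, read 9.76 to 10.13 under DMSO and 12.50 to 12.81 after DMBA (2.76 ± 0.10, adjusted p = 7.87e-07). Gclm and Gclc, the subunits of the enzyme that starts glutathione synthesis, rose by 2.23 ± 0.15 and 1.76 ± 0.16, and thioredoxin reductase 1 (Txnrd1) by 2.08 ± 0.14. In all 4 the groups did not overlap, and the arrays of SKO responded as far as the others (Gclm from 9.73 to 12.36, Txnrd1 from 7.69 to 10.31). These 4 were named for a small p, which favours genes with an even response over genotypes. The list median was 1.30 (WT), 1.44 (TKO), 0.955 (STKO) and 0.83 (SKO), lowest in SKO. The cystine importer Slc7a11, chosen after its values were seen, rose by 2.27 ± 0.30 at 48 h and read -0.68 at 24 h. Chac1, which breaks glutathione down, was the 1 member that fell, by 2.72 ± 0.26.

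Other detoxifying groups were mixed. Of 12 aldo-keto, carbonyl and aldehyde enzymes 7 rose. Among them were Cbr3 (1.87 ± 0.22), Ephx1, an epoxide hydrolase that helps form diol epoxides (1.47 ± 0.16), Akr1b8 (1.33 ± 0.15) and Aldh2 (1.04 ± 0.11). Cbr2 and Aldh1a3 fell, although Aldh1a3 did not fall in WT (0.10). In heme and iron handling 6 of 16 rose and 3 fell (1 without WT, TKO or STKO), with a median of 0.07. Hmox1, heme oxygenase 1, went from 9.67, 8.83, 9.51 and 9.28 to 12.30, 11.72, 11.04 and 11.43 (2.30 ± 0.20). Blvrb, a biliverdin reductase, rose by 1.97 ± 0.15 and the heme transporter Slc48a1 by 1.40 ± 0.11, while the other biliverdin reductase, Blvra, fell by 0.73 ± 0.11. Of 8 pentose phosphate and NADPH enzymes Taldo1 rose (0.89 ± 0.12) and Idh2 fell (-1.09 ± 0.21). Of 5 drug efflux transporters 3 rose, with Abcb1b, a multidrug pump, at 1.88 ± 0.35.

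Promoter sequences of these genes are shown because the receptor and NRF2 act through short DNA words. The stretches come from RefSeq promoters of GRCm38.p6 and run on the strand of the gene, with the match in capitals. For NRF2 the word searched was the antioxidant response element TGACNNNGC, and for the aryl hydrocarbon receptor the core GCGTG, on both strands and within the 250 bases before the start site. A match on the opposite strand appears as its reverse complement.
Gclm, chr3:122245383-122245471, + strand: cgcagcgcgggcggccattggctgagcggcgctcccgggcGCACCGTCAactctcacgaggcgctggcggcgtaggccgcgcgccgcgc
Txnrd1, chr10:82859074-82859162, + strand: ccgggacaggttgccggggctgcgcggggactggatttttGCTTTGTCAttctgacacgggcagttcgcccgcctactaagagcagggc
Gsta3, chr1:21240424-21240512, + strand: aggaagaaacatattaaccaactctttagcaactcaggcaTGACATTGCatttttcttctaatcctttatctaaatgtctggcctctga
Cyp1b1, chr17:79715093-79715177, - strand: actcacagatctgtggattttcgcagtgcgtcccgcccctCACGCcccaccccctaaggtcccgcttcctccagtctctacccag

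A gene was counted if the promoter of any of its start sites held the word. The antioxidant word stood in 3 of 12 genes of the glutathione and thioredoxin list (Gclm, Txnrd1 and Prdx1) and in 4 of 19 glutathione S-transferases. The shares were 13.7% of the 8225 tested genes with a promoter searched and 11.5% of all 27025 genes with one. It stood in 15.2% of genes that rose, 12.9% of those that fell and 8.89% of the 90 that rose by more than 2. The receptor core stood in 3 of 7 promoters of the receptor battery against 50.4% of tested genes. A match is a description of these letters and not a site in use, and the window leaves out distant enhancers.

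Genes that p53 activates rose in most cases. Of 16 arrest and feedback targets 14 rose and none fell, with a median of 1.15. Cdkn1a, the inhibitor of cell cycle kinases p21, read 12.37, 12.68, 12.63 and 12.82 under DMSO and 14.40, 14.45, 13.72 and 14.11 after DMBA (1.55 ± 0.19, adjusted p = 0.00033). Mdm2, the ligase that degrades p53, went from 11.17 to 11.66 up to 13.33 to 14.13 (2.33 ± 0.26). Trp53inp1 rose by 1.72 ± 0.15, Phlda3, an inhibitor of AKT, by 1.51 ± 0.17 and Ei24 by 1.43 ± 0.15. All of these kept DMSO and DMBA arrays apart, with SKO the lowest or next to lowest after DMBA. The list median was 1.46 (WT), 1.48 (TKO), 0.83 (STKO) and 0.63 (SKO).

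Of 11 apoptosis targets of p53 7 rose, with a median of 0.53. Pidd1, a death domain protein, rose by 2.78 ± 0.31, the death receptor Fas by 1.98 ± 0.26 and Trp53i11 by 1.71 ± 0.20. Pmaip1, the BH3 protein NOXA, went from 7.94, 6.96, 8.19 and 8.54 to 10.82, 10.71, 8.90 and 10.05, a rise of 2.21 ± 0.42 that was 2.88 in WT and 0.71 in SKO.

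Of 19 excision repair genes and translesion polymerases 4 rose, a share near the 19.2% of all genes, and 2 fell, with a median of 0.14. Polk, a polymerase that copies past bulky adducts, rose by 1.59 ± 0.17, the nuclease Ercc5 by 1.46 ± 0.23 and Rev1 by 0.98 ± 0.11, while the polymerase Polh (-0.65 ± 0.12) and the ubiquitin ligase Rad18 (-0.58 ± 0.12) fell. Of 15 recombination and crosslink repair genes 6 fell, with a median of -0.45, among them Mre11a (-0.78 ± 0.11) and Rad54l (-1.02 ± 0.21). Xrcc3 was not detected under DMSO and was detected on 2 DMBA arrays. Its differences were 1.38 (WT), 1.27 (TKO), -0.06 (SKO) and 0.13 (STKO). The mean over the 4 genotypes was called risen (limma adjusted p = 0.0398), and this call was lost without WT, TKO or STKO.

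Transcripts of dividing cells fell. All 21 tested mitosis genes fell, with a median of -0.99, and the list stood at -0.30 at 24 h. Cdkn3, a phosphatase of cell cycle kinases, read 10.68 to 10.73 under DMSO and 8.22, 8.83, 9.26 and 8.78 after DMBA (-1.94 ± 0.17, adjusted p = 8.11e-05). Cdca3, which targets a mitotic inhibitor for destruction, fell by 1.54 ± 0.14, the transcription factor Foxm1 by 1.24 ± 0.14 and survivin (Birc5) by 1.14 ± 0.14. In each of the 4 genes every DMBA array lay below every DMSO array. The list median was -1.29 (WT), -1.10 (TKO), -1.28 (STKO) and -0.57 (SKO).

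Of 36 DNA replication genes 22 fell and none rose, with a median of -0.55, against 0.09 at 24 h. The chromatin assembly subunit Chaf1a fell by 0.78 ± 0.12, thymidylate synthase (Tyms) by 0.69 ± 0.10, the helicase subunit Mcm5 by 1.04 ± 0.20 and the primase subunit Prim2 by 0.90 ± 0.17. Prim2 differed by -1.15 (WT), -1.16 (TKO), -1.10 (STKO) and -0.19 (SKO). The sliding clamp Pcna (0.06), Rrm2 (0.30) and E2f1 (0.22) were not called, and they are named on the strength of their values. Without STKO 11 replication genes were called fallen.

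Promoters of mitosis genes are shown for the cell cycle homology region, TTTGAA, the word through which the DREAM complex holds such genes down when p53 is active. Searched on both strands in the same window, it stood in 7 of 18 mitosis genes, 12.6% of tested genes and 18.3% of all genes with a promoter searched. The CCAAT box, which often accompanies it, stood in 15 of 18 against 40.8% of tested genes. The 4 stretches below have the word within 30 bases of the start site, in capitals.
Cdc20, chr4:118437344-118437401, - strand: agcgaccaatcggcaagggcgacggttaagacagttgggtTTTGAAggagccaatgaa
Kif11, chr19:37376323-37376381, + strand: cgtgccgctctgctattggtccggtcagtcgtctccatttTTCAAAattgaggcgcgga
Ube2c, chr2:164769860-164769928, + strand: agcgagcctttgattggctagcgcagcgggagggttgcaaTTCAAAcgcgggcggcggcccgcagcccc
Espl1, chr15:102296226-102296292, + strand: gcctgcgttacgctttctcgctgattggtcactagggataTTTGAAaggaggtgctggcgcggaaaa

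These 4 genes were picked for the word and for its place. Cdc20, which activates the anaphase-promoting complex, fell by 0.76, the spindle motor Kif11 by 1.27, the ubiquitin-conjugating enzyme Ube2c by 0.68 and separase (Espl1) by 1.10.

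Lipid synthesis fell along its pathways. Of 18 genes of cholesterol synthesis and uptake 16 fell and none rose, with a median of -1.24. Fdps, which makes farnesyl diphosphate, read 13.27, 13.65, 13.49 and 13.55 under DMSO and 10.83, 10.77, 12.26 and 11.72 after DMBA (-2.10 ± 0.22, adjusted p = 0.000167). Lanosterol synthase (Lss) fell by 1.77 ± 0.20 and lanosterol demethylase (Cyp51) by 1.49 ± 0.15. Mevalonate kinase (Mvk) read 6.69 to 7.05 under DMSO, was detected on no DMBA array and stood at least 2.25-fold lower. In all 4 the groups did not overlap, and SKO kept the highest DMBA value of Fdps, Lss and Cyp51. In fatty acid synthesis and desaturation 11 of 13 fell, with a median of -0.77, among them the elongases Elovl6 (-1.78 ± 0.23) and Elovl5 (-0.77 ± 0.12) and the desaturase Fads1 (-1.10 ± 0.16). Of 15 fatty acid oxidation genes and PPAR targets 7 rose and 1 fell, Pparg, although Pparg read 0.48 higher after DMBA in SKO. Cpt1c, a carnitine palmitoyltransferase, rose by 1.85 ± 0.20, the lipid droplet protein Plin2 by 1.83 ± 0.28 and the oxidation enzyme Acadvl by 1.20 ± 0.16.

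Amino acid and one-carbon genes of the ATF4 response fell. Of 24 tRNA synthetases and amino acid response genes 17 fell and 2 rose, with a median of -0.78. Asns, asparagine synthetase, went from 13.03, 13.07, 13.06 and 12.93 to 11.04, 10.96, 12.02 and 11.50 (-1.64 ± 0.17, adjusted p = 0.000167). The branched-chain aminotransferase Bcat1 read 11.65 to 11.70 under DMSO and 8.55, 8.52, 10.06 and 8.99 after DMBA and fell by 2.64 ± 0.23. Ddit4, an inhibitor of mTORC1, rose by 0.62 ± 0.12, and so did Cbs (at least 1.33-fold). The serine and glycine enzymes Psat1 (-1.48 ± 0.16), Phgdh (-1.45 ± 0.20), Shmt2 (-1.53 ± 0.18) and the folate enzyme Mthfd2 (-1.96 ± 0.17) fell, with 5 of 11 in their list fallen and 2, Mthfd1 and Aldh1l1, risen.

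In the endoplasmic reticulum list 10 of 18 fell, with a median of -0.44, and 6 were called without TKO. Xbp1, a transcription factor of the unfolded protein response, fell by 1.35 ± 0.12, Herpud1 by 1.33 ± 0.20 and the chaperone calreticulin (Calr) by 1.14 ± 0.12, while the co-chaperone Dnajb9 rose by 0.59 ± 0.11. Cytosolic heat shock proteins rose in 7 of 13 cases and none fell, with Cryab at 2.43 ± 0.31 and Hspa1b at 1.57 ± 0.18, and without WT or TKO 4 were called. Autophagy and lysosome genes rose in 20 of 29 cases and none fell, though each by a modest amount (median 0.46). The cathepsins Ctsz (0.97 ± 0.11) and Ctsb (0.65 ± 0.10), prosaposin (Psap, 0.77 ± 0.10) and the autophagy receptor Sqstm1 (0.73 ± 0.10) had the smallest p-values. The list median lay between 0.44 and 0.51 in every genotype. Without TKO 11 of its genes were called, and without STKO 13.

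Housekeeping lists had medians near 0. Of 27 constitutive proteasome genes 4 rose and 3 fell, of 23 cytosolic ribosomal proteins 4 fell, and of 17 ribosome biogenesis genes 1 rose and 3 fell. Their medians were -0.03, -0.04 and -0.12. Of 31 complex I genes 6 rose and 3 fell, and of 18 glycolysis and hypoxia genes 2 rose and 5 fell, against 19.2% risen and 21.9% fallen of all genes. These small counts moved when a genotype was left out: without WT 2 proteasome genes rose, 1 ribosomal protein fell, 3 complex I genes rose and 2 glycolysis genes fell, while without SKO 9 complex I genes rose.

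**Figure D4:**
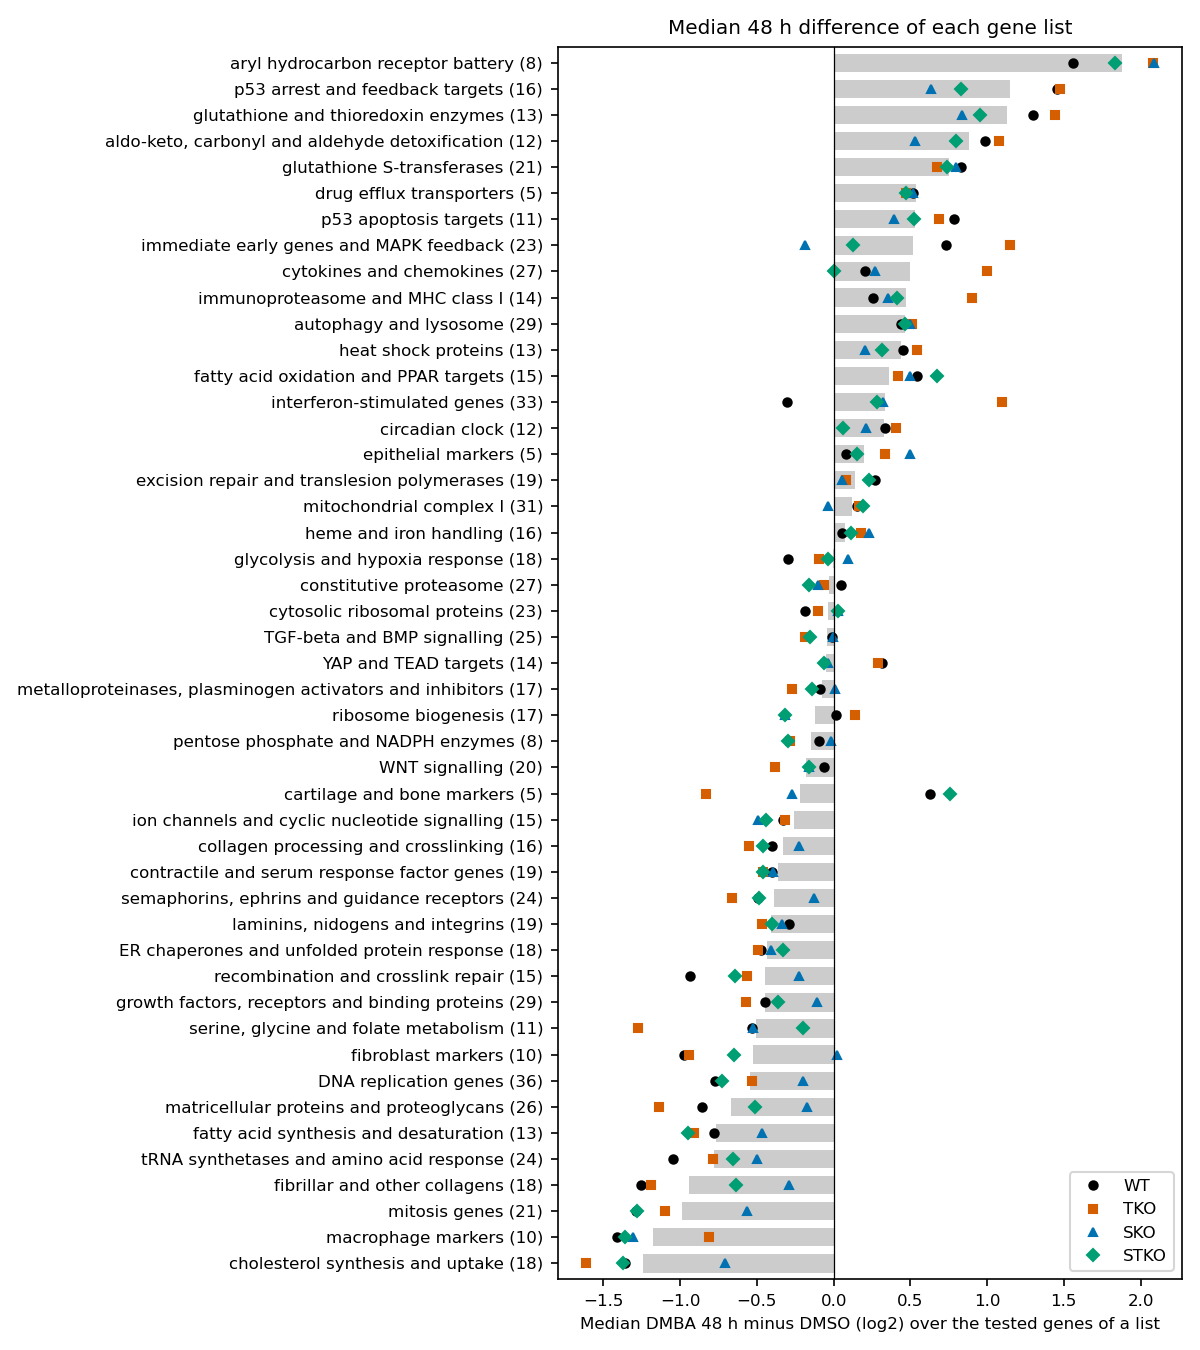
Median DMBA 48 h minus DMSO difference (log2) over the tested genes of each list with 5 or more of them (number in parentheses), from the fit over the 4 genotypes (bars) and in each genotype (symbols). The receptor battery lies highest at 1.88 and cholesterol synthesis lowest at -1.24, and SKO lies nearest to 0 in many of the lists that fell.

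Extracellular matrix and its receptors mostly fell. Of 18 collagens 12 fell and 2 rose, with a median of -0.94. Col1a1, a chain of the main fibrillar collagen, read 13.52, 13.14, 13.46 and 13.21 under DMSO and 12.23, 11.12, 12.91 and 11.75 after DMBA (-1.33 ± 0.26, adjusted p = 0.00289). Col5a1 fell by 1.19 ± 0.17 and Col6a2 by 1.47 ± 0.19, whereas Col18a1, the source of endostatin, rose by 0.90 ± 0.14. Of 16 genes that modify or crosslink collagen 8 fell, among them the hydroxylases P3h1 (-1.02 ± 0.11) and P4ha2 (-1.16 ± 0.20). Of 26 matricellular proteins and proteoglycans 16 fell and 3 rose. Decorin (Dcn), a proteoglycan that coats collagen fibrils, went from 13.65, 13.11, 12.30 and 11.94 to 14.66, 14.12, 13.73 and 13.78 (1.32 ± 0.14), and versican (Vcan) rose by 1.14 ± 0.12.

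Of 19 laminins, nidogens and integrins 9 fell and 2 rose. Integrin alpha 9 (Itga9) fell by 2.92 ± 0.33 to signals detected on 1 DMBA array alone, and its other probe read -1.25. Integrin alpha 1 (Itga1) was at least 1.79-fold lower, and integrin alpha 3 (Itga3) rose by 0.98 ± 0.14. Among 17 metalloproteinases, plasminogen activators and inhibitors 3 rose and 4 fell, near the 19.2% and 21.9% of all genes (median -0.08). Mmp12, macrophage elastase, read 8.54, 5.76, 5.83 and 6.60 under DMSO and 12.29, 9.02, 10.49 and 10.75 after DMBA (3.95 ± 0.27), and Mmp13, a collagenase, fell by 1.35 ± 0.29. Of 19 contractile genes 10 fell and none rose, with myosin light chain kinase (Mylk) at -2.59 ± 0.23 and the smooth muscle actin Actg2 at -1.40 ± 0.12. Without STKO, or without the genotype term, 5 contractile genes were called.

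Fibroblast markers overlapped with these lists: 5 of 10 fell (3 without TKO) and none rose, with medians of -0.97 (WT), -0.95 (TKO), -0.65 (STKO) and 0.02 (SKO). The summed linear signal of the 10 ran from 48603 to 64257 under DMSO and from 34913 to 56191 after DMBA. In bulk samples fewer cells of a type and less RNA per cell cannot be told apart.

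Macrophage transcripts were present in these cultures and changed. Of 10 tested macrophage markers 8 fell and 2 rose, with a median of -1.18. C1qa, a chain of complement C1q, read 9.48, 6.79, 8.74 and 8.98 under DMSO in WT, TKO, SKO and STKO and 6.95, 5.17, 6.95 and 6.99 after DMBA (-1.98 ± 0.17). The TKO culture was lowest under both treatments, so the groups overlapped although every genotype fell. C1qb (-1.70 ± 0.20) and C1qc (-1.66 ± 0.19) fell too, while lysozyme 2 (Lyz2, 0.93 ± 0.13) and the adaptor Tyrobp (0.74 ± 0.12) rose. The summed signal of the 10 markers ran from 3683 to 29759 under DMSO and from 4745 to 29282 after DMBA, and without Lyz2 from 1625 to 11980 and from 757 to 3933. Cx3cr1 and Aif1 were detected on no DMBA array, and Cd68 and Ptprc were not tested. The macrophage genes Mmp12, Cx3cr1 and Ccl12 stand among the largest changes, and the part of macrophages in these, in Ccl2, Ccl3 and in other cytokines was not tested.

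Markers of other cell types were few. Of 9 mast cell and basophil markers 2 were tested, and Mcpt8, a basophil protease not detected under DMSO, stood at 8.61, 8.99, 6.70 and 7.67 after DMBA, at least 5.02-fold higher. The other 7, among them Cpa3 and Ms4a2, were not detected on enough arrays to be tested. Krt19 and Cdh1 rose among 5 epithelial markers while Epcam and Krt5 were not tested, and the endothelial marker Emcn was at least 1.55-fold lower.

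Cytokines and chemokines, the readout the series names, moved in both directions. Of 27 tested 12 rose and 6 fell, with a median of 0.50. Ccl2, which attracts monocytes, read 10.29, 9.17, 9.40 and 9.62 under DMSO and 11.39, 11.90, 10.16 and 10.36 after DMBA (1.33 ± 0.30, adjusted p = 0.00655). It rose in all 4 genotypes and most in TKO, and the groups overlapped. Il7 rose by 1.57 ± 0.20 and Il15 by 1.21 ± 0.19, both growth factors of lymphocytes. Cxcl12, a chemokine that stromal cells make, went from 12.73, 12.41, 12.18 and 12.40 to 8.92, 8.99, 11.82 and 10.10 and fell by 2.47 ± 0.44. Its fall was 3.81 in WT and 0.36 in SKO. Il1rn, the interleukin 1 receptor antagonist, fell by 1.57 ± 0.30.

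Il6 differed between genotypes in its response. It read 6.52 and 6.06 in WT and TKO under DMSO and 8.72 and 7.93 after DMBA, against 5.74 and 6.97 in SKO and STKO under DMSO and 5.94 and 6.92 after DMBA. The mean over the 4 genotypes was called (1.05 ± 0.35, adjusted p = 0.0355), but not without WT or TKO, nor with the 8 arrays alone. Ccl5 and Cxcl10 were not called. Ccl5 went from 6.92 to 8.16 in WT and from 10.29 to 13.15 in TKO and was not detected after DMBA in SKO (5.03) and STKO (4.74). Cxcl10 went from 8.15 to 6.64 in WT and from 8.88 to 11.69 in TKO and was detected in neither SKO nor STKO.

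Of 33 interferon-stimulated genes 8 rose and none fell, with a median of 0.34. Their median differed in sign between genotypes, at -0.30 (WT), 1.10 (TKO), 0.32 (SKO) and 0.28 (STKO). Gbp3, an interferon-induced GTPase, read 10.06, 10.30, 6.21 and 5.90 under DMSO and 10.80, 11.91, 7.41 and 7.45 after DMBA (1.27 ± 0.17). It rose in all 4 genotypes from a level much lower in SKO and STKO. Lgals3bp rose by 1.23 ± 0.19. The share of the interferon-stimulated list that rose is near the 19.2% of all genes, and 3 of them were called without TKO or without STKO, 5 without SKO and 1 with no genotype term, while the median ran from 0.128 without TKO to 0.587 without WT. In antigen presentation 9 of 14 rose and Erap1 fell. Without TKO 3 were called risen, without STKO 4 and with no genotype term 0. By p the list was led by the peptide transporter Tap1 (1.59 ± 0.15) and the class I heavy chain H2-D1 (1.24 ± 0.17).

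Signalling lists differed in direction. Of 29 growth factors, receptors and binding proteins 12 fell and 5 rose. Fgf21, a stress hormone, was detected on no DMBA array and stood at least 3.02-fold lower, and the receptor Pdgfrb fell by 1.21 ± 0.21. Kitl, the ligand of KIT, rose by 1.68 ± 0.23 and Pdgfa by 1.02 ± 0.15. Of 24 semaphorins, ephrins and guidance receptors 11 fell and 2 rose, with Plxna2, a semaphorin receptor, at -2.06 ± 0.14 and the ephrin receptor Epha3 at -2.36 ± 0.32. Of 25 genes of TGF-beta and BMP signalling 5 rose and 7 fell, near the 19.2% risen and 21.9% fallen of all genes. Their median was -0.04, with Tgfb3 at -1.06 ± 0.13 and the co-receptor Eng at 0.89 ± 0.13. Against the same shares, 1 of 20 WNT genes rose and 6 fell (median -0.18), among them the receptor Ror2 (-1.29 ± 0.19). Among immediate early and MAPK feedback genes the phosphatase Dusp4 rose by 1.41 ± 0.28, though its other probes read 0.66 and 0.48. Atf3, a stress-induced repressor, rose by 2.46 ± 0.46. In this list 8 of 23 genes rose. Without WT or TKO 5 of these were called risen, while 3 or 4 TGF-beta and BMP genes were called fallen without WT, TKO or STKO, 3 WNT genes without WT or STKO, and 7 guidance genes without WT, TKO or STKO. Growth factor genes called risen numbered 3 without TKO, SKO or STKO. Klf2, a transcription factor induced by shear stress, fell by 2.23 ± 0.26, from 9.75 to 10.06 down to 7.25 to 8.32.

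Whether the late response depended on STING was asked by setting the 48 h differences of WT and TKO against those of SKO and STKO. On all 12 arrays 920 probes were called (5.00%), with the response higher with STING in 436 and lower in 484, and 4594 had an unadjusted p under 0.05. The calls did not hold on fewer arrays: with the 8 arrays alone limma called 0 probes, with 3893 at an unadjusted p under 0.05. Fewer probes were also called whenever a genotype was left out. Such a run leaves the cells with or without STING with no replicate genotype, so it cannot show which genotype the calls rest on. The 8 arrays alone leave fewer degrees of freedom, and the part of the 24 h arrays in the calls was not tested. The values of the probes with the smallest p follow as descriptions of the 4 genotypes.

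Some genes moved further in the cells with STING. Etv4, a transcription factor of the MAPK pathway, read 6.16 and 6.46 in WT and TKO under DMSO and 8.87 and 8.65 after DMBA, while SKO and STKO went from 7.70 and 8.08 to 7.16 and 7.53 (3.00 ± 0.22 higher with STING, adjusted p = 0.00373). Crct1, a protein of cornified skin, differed by 4.55 and 4.66 in WT and TKO and by 0.45 and 1.49 in SKO and STKO. The 2 tested probes of the adhesion molecule Igsf11 gave 1.85 and 2.17 in WT and 0.08 and 0.04 in SKO, but they were detected on 0 and 1 DMSO arrays, so these differences start from background. Itgbl1, a secreted integrin-like protein, had differences of -4.01 and -3.38 in WT and TKO and of -0.41 and -0.27 in SKO and STKO. Cldn11, a claudin of tight junctions, had differences of -2.72 and -2.44 in WT and TKO, where it was detected under DMSO alone, and was detected on none of the SKO and STKO arrays compared here. Macrod1, an enzyme that removes ADP-ribose, had differences of -2.27 and -2.17 with STING and 0.22 and 0.28 without.

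Ednrb and Nppb had larger differences without STING. Ednrb, the endothelin receptor type B, read 5.79 and 5.45 in SKO and STKO under DMSO and 9.23 and 8.73 after DMBA, while WT and TKO went from 7.09 and 7.11 to 7.39 and 7.28, and a second probe gave 3.29 and 2.58 without STING against 0.29 and -0.24 with it. Nppb, which encodes brain natriuretic peptide, went from 7.51 and 8.14 to 4.75 and 5.08 in SKO and STKO and from 5.76 and 6.35 to 5.15 and 5.83 in WT and TKO. Nppb was detected after DMBA on 1 array alone, so its end values have no order, and its differences in WT and TKO start from signals already near background. The Lrrfip1 probe among the 10 with the smallest p gave 1.58 in WT and TKO and -0.61 and -0.35 in SKO and STKO, whereas another Lrrfip1 probe gave 0.68, 0.61, 0.22 and 0.31 and was not called for STING (adjusted p = 0.205).

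**Figure D5:**
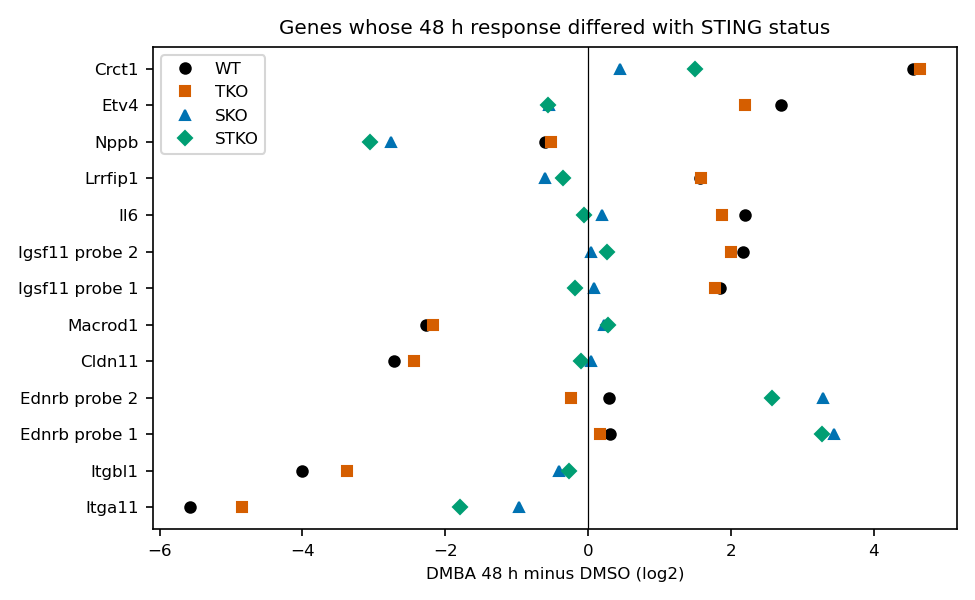
DMBA 48 h minus DMSO difference (log2) in each genotype for the 10 probes with the smallest interaction p, the other called probe of Ednrb and of Igsf11, and Il6. Circles (WT) and squares (TKO) fall together and away from triangles (SKO) and diamonds (STKO), as in Ednrb (0.31 and 0.17 against 3.44 and 3.28 on the first probe).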

How the data were processed

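RNA of 12 cultures was read on Illumina bead arrays, and no source used here names the scanner software. The authors deposited bead intensity per probe, not normalized between arrays. Beside each intensity the deposited file holds a detection score from 0 to 1 that rises with signal, so 1 minus it was used as the detection p. The authors also deposited a value table whose values behave as log2 values, normalized and centred on each probe's median, and this served as an alternative.

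Intensities were background-corrected with limma's neqc (normexp by detection p, offset 16, quantile) in R 4.3.3 with limma 3.58.1. Testing was kept to the 18389 of 45281 probes that reached a detection p below 0.01 on 2 or more of the 12 arrays, and 15868 of these had 1 gene symbol in the platform annotation. limma fitted genotype and treatment to all 12 arrays with 6 residual degrees of freedom, and p-values were adjusted by Benjamini-Hochberg. The STING interaction left 4 degrees of freedom. For counts of genes the probe of highest mean stood for its gene. A bound ("at least") sets the mean of a group detected on any of its arrays against the lowest detected signal. The scripts were tested on simulated data. The number of arrays limits the precision.

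The genotypes, lists and tests were chosen with earlier results of these data known. Named genes were the 15 largest rises and falls that moved alike in 4 genotypes, up to 4 called members per list with the smallest p and up to 2 against its median, the targeted genes, chosen readouts, 10 interaction probes and the 5 genes of widest spread. Any other gene named was chosen after its values were seen. Of 1071 listed symbols 993 were on the array, and the rest were not analysed here. Promoters and gene lengths came from RefSeq tables. Alternatives left out a genotype, the 24 h arrays, the genotype term, background correction or the detection filter, scaled by the median, required detection on all 8 arrays, or used the deposited table.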

Additional observations from a re-analysis of the deposited data

Results flagged for a closer look

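In 11 of 305 results tested (3.61%) the difference of 1 genotype lay far from the other 3, where chance gives about 1 in 20. WT stood apart in Ccl3 (0.20), Lama1 (-2.89), Nop14 (0.33) and Pfkp (-1.49). SKO stood apart in Klf2 (-1.44), Prim2 (-0.19), Trp53inp1 (1.31) and the median of complex I genes (-0.03). TKO did so in Actg2 (-1.80) and the median of macrophage markers (-0.81), and STKO in Gclc (1.16).

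The 48 h response differed by STING status in 38 of 252 named probes on 12 arrays, a test that called 5.00% of all probes, and 0 with the 8 arrays alone or without SKO. Of the 252, 13 were named through the smallest p of this same test, and 26 of the other 239 were called. Those were themselves named for a large or certain 48 h change or a wide spread over genotypes, so the counts are a description. The values are the response with STING minus that without it, on the log2 scale. It was higher with STING in Crct1 (3.63), Akr1c18 (3.49), Etv4 (3.00), Ccl5 (2.64), Nppb (2.35), Pmaip1 (2.20), Lrrfip1 (2.05), Il6 (1.97), Mcpt8 (1.94), both Igsf11 probes (1.93 and 1.86), Abcb1b (1.71), Dusp4 (1.56), Mfsd2a (1.52), Cryab (1.50), Xrcc3 (1.29), Ccn2 (1.26), Nes (1.23) and Timp1 (1.13). It was lower in Itga11 (-3.83), Itgbl1 (-3.36), the Ednrb probes (-3.12 and -2.91), Cyp7b1 (-3.09), Tril (-2.98), Cldn11 (-2.55), Aldh1l2 (-2.51), Macrod1 (-2.47), Sema5a (-2.19), Pdgfra (-1.84), Epha3 (-1.66), Unc5c (-1.65), Col1a2 (-1.32), Fdps (-1.13), Gstt1 (-0.92), Ror2 (-0.91), P4ha2 (-0.88) and Asns (-0.81).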

How the results depend on the processing

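The count of 7277 called probes became 6434 with the 8 arrays alone, 5847 with no genotype block (the pairing of DMSO and DMBA arrays by genotype), 7471 with no background correction or the deposited table and 7036 without the detection filter. Leaving out 1 genotype gave 4885 to 7268 calls, and 2469 to 3721 fallen probes. Median scaling gave 7228 calls, of which 57.4% were risen against 48.3%, and moved the median of all probes from -0.006 to 0.069. Detection on all 8 arrays left 14030 probes and 5690 calls. The 920 interaction calls became 0 with the 8 arrays alone, 246 without the filter, 1655 with no background correction or the deposited table, and 0 to 348 when 1 genotype was left out. The cause was not tested. Cxcl10, not called at 0.34, ran from -0.48 without TKO (adjusted p = 0.439, limma) to 0.96 without WT. Calls of 27 named probes were lost with the 8 arrays alone and of 45 with no genotype block, among them H2-D1, Tap1, Gbp3, Lgals3bp, Lyz2, Tyrobp, C1qb, C1qc, Col1a2 and Il6. Without WT 31 were lost, without TKO 36, without SKO 9 and without STKO 32. Probes near background limit the bounds given for genes not detected in a group.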

Other observations

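The circadian clock list was mixed, with 4 of 12 genes risen and 3 fallen (0 fallen without TKO or STKO). The repressor Nr1d2 rose by 0.95 ± 0.21 and its relative Nr1d1 by 0.68 ± 0.13, while the activator Arntl fell by 0.53 ± 0.14 (limma adjusted p of 0.00557, 0.00319 and 0.0139). Of 15 ion channel and cyclic nucleotide genes 6 fell and none rose, against 21.9% fallen and 19.2% risen of all genes. Among the fallen were Piezo2, Prkg1 and the guanylate cyclase subunit Gucy1a1 (-1.75 ± 0.16). Only 6 of the 15 were detected on all 8 arrays, and 1 of these fell. Of 14 YAP and TEAD targets 3 rose and 1 fell, against 19.2% and 21.9% of all genes, with a median of -0.05. The phosphatase Ptpn14 rose by 1.16 ± 0.13, though its other probes read 0.33 and 0.37. Ccn2, a matricellular growth factor, fell by 1.00 ± 0.24.

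Bglap2, an osteocalcin gene of bone, was detected on all 4 DMBA arrays and on no DMSO array. It read 9.20, 8.26, 5.89 and 7.36 after DMBA in WT, TKO, SKO and STKO, at least 4.04-fold higher. Of 5 tested cartilage and bone markers 2 rose, Bglap2 and Matn4, and 2 fell, among them Sox9 (-0.64), with a median of -0.22. Of 2 tested neural markers Nes, an intermediate filament of neural progenitors, rose by 1.62 ± 0.24 and Map2 fell (-0.63). Map2 went the other way in SKO (0.38). Of 2 skeletal muscle markers 1 rose and 1 fell, and of 3 adipocyte markers 1 rose and 1 fell. Fabp3, a fatty acid carrier of muscle, rose by 0.85 ± 0.10.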
